A study of Homo sapiens with 5 samples.

Results

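The 31 genes described here encode the machinery of mitosis and of the G2 phase before it: mitotic cyclins and CDK1, mitotic kinases, kinesins, kinetochore proteins and cytokinesis proteins, with the transcription factor FOXM1. They were chosen by symbol from a fixed list, and all 31 were found among the 27477 genes of the authors' deposited table. RNA-seq had been made from PC9 cells, a long-established line of human lung adenocarcinoma that depends on an activating mutation of EGFR. There were 2 libraries of drug-tolerant cells, given 50 nM gefitinib for 6 days and then growth medium for 3 days, and 3 libraries of parental PC9 cells. Gefitinib inhibits the EGFR kinase. All cells were grown in RPMI medium with 10% serum, and the labels give no dose for parental cells. Drug-tolerant cells were thus sampled after a period in growth medium. The labels do not say whether replicates were separate cultures, so p-values reflect the variation among these libraries alone, and part or all of that may be technical. The file holds 1 comparison and no value per library, so each gene is given by its mean level over the 5 libraries, its log2 fold change and the authors' standard error. A positive log2 fold change means a higher level in the drug-tolerant libraries.

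Entry into mitosis is driven by CDK1 bound to cyclin B, which is held inactive by phosphorylation until CDC25 phosphatases act on it. Polo-like and Aurora kinases then build the spindle, the NDC80 complex ties chromosomes to its microtubules, and BUB1, BUBR1 (encoded by BUB1B) and TTK hold the cell at metaphase until every kinetochore is attached. CDC20 then turns on the anaphase-promoting complex, which marks cyclin B and securin for destruction, and the centralspindlin and anillin proteins divide the cell. Transcripts of these genes peak in G2 and M, through the DREAM and MuvB complexes with B-MYB and FOXM1, which act at promoters with a cell cycle genes homology region (CHR, letters TTTGAA) and CCAAT boxes bound by NF-Y. In bulk RNA, fewer cells in G2 and M and less of these transcripts per cell cannot be told apart.

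Many promoters of the 31 genes hold these letters. RefSeq promoters (GRCh38.p14, 250 bases before to 50 bases after the gene start, 300 bases) were matched by symbol for 25 of the 31 genes. TTTGAA, read on both strands, was present in 19 of the 25 promoters (76.0%), against 11.8% of the 14895 promoters of protein-coding genes searched in the same way. Within the 90 bases before the start it was present in 15 (60.0%), against 3.10% of all promoters. CCAAT, also read on both strands, was present in 21 (84.0%), against 36.4%, and both motifs together in 16 (64.0%), against 4.92%. A match is a description of letters and not a site of binding. Below are the promoters of the members at either end of the range of fold changes described next, to show which of them carry the motifs, with TTTGAA and CCAAT (or their reverse complements TTCAAA and ATTGG) in capitals. CCNB2 (chr15:59104896-59105195, plus strand) and CDC25C (chr5:138331755-138332054, minus strand) had the lowest values, and MKI67 (chr10:128126374-128126673, minus strand) and CENPE (chr4:103198294-103198593, minus strand) the highest.
CCNB2: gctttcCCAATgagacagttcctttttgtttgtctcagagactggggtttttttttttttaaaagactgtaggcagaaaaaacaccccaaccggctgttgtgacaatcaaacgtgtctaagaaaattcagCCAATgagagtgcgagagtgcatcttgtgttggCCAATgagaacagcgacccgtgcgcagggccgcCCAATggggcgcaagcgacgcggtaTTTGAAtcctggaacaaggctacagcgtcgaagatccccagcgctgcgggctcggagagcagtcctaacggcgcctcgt
CDC25C: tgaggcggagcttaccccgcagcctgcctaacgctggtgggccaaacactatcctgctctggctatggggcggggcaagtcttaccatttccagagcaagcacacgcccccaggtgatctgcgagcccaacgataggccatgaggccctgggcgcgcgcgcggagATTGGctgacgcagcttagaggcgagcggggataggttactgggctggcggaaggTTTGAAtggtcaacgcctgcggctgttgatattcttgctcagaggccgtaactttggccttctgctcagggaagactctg
MKI67: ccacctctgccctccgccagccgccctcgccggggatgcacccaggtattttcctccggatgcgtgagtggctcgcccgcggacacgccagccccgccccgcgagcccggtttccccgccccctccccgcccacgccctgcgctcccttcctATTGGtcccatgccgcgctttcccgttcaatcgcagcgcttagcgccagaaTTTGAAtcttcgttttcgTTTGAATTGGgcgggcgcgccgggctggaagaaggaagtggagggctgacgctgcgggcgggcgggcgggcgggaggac
CENPE: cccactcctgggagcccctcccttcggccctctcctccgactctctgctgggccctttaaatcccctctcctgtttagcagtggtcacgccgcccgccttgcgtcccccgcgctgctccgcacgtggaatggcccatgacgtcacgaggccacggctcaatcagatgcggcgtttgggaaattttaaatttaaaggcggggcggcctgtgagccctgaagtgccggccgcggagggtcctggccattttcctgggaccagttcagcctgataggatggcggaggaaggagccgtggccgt
The CCNB2 promoter held 4 CCAAT boxes and 1 TTTGAA starting 29 bases before the gene start. CDC25C held 1 of each, with TTTGAA 30 bases before the start. In MKI67, 2 TTTGAA motifs started 47 and 29 bases before the start, and the nearer one overlaps an inverted CCAAT box by a single base. In the CENPE window neither set of letters was found. Among the 19 genes with TTTGAA, 10 had a log2 fold change below 0, and the median was -0.033. Among the 6 matched genes without it, 4 were below 0, and the median was -0.13. These 6 include AURKB, whose window was set on a start 349 bases from that of its principal transcript. The 250 bases before the principal start of AURKB were therefore not searched. Of the 21 genes with CCAAT, 13 were below 0, with a median of -0.071, against 1 of the 4 without it, with a median of 0.41. With a trend in transcript length and GC content removed (described below), the medians were 0.15 with TTTGAA and -0.014 without it. For CCAAT they were 0.053 with it and 0.26 without. No difference between such groups was tested.

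In low-count genes the libraries did not divide by group. Per-library reads could be recovered for 12705 genes with a mean under 10, none of them among the 31. In those genes the ratio of reads from long transcripts (over 4 kb) to reads from short ones (under 2 kb) was 0.818 and 0.709 for drug-tolerant cells, against 0.808, 0.518 and 0.507 for parental cells. Pairs of libraries were compared by chi-square per degree of freedom, where 1 is counting error alone. The value was 1.10 between the drug-tolerant libraries and 1.36 and 1.44 between each of them and the parental library of 0.808. It was 1.05 between the other two parental libraries, which agree within sampling noise in these genes (chi-square test, p = 0.096, counting error only) and may be 1 RNA or 2 similar cultures. Between each of them and the first parental library it was 3.36 and 3.42. The authors' comparison counts all 5 libraries, and it cannot be recomputed for the genes below with these 2 as 1 sample or without any library. Depth was about 14.2 to 21.4 M counted reads per library. Of 5 epithelial markers, EPCAM, KRT8, KRT18, CDH1 and CLDN4, all were measured, with mean levels summing to 71532 normalized reads. Of these 5, 0 were called, against 0.552% of all genes tested, and at that share the count says little. Of 3 endothelial markers, CDH5 was at 252.8, VWF at 6.61 and KDR was not among the genes analysed here. Of 5 fibroblast markers, COL1A1 was at 162.4, PDGFRB at 0.353, and COL1A2, COL3A1 and DCN were not among them, nor were the haematopoietic PTPRC, CD3E and CD79A. The part of other cells in the results was not tested.

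None of the 31 genes passed an adjusted p under 0.05 in either direction (DESeq2, the authors' deposited table), where 0.552% of the 15223 genes tested were called. Their adjusted p ran from 0.45 to 0.94. At an unadjusted p under 0.05, 2 of the 31 genes were lower and 0 higher, against 10.8% of all genes tested (7.1% lower and 3.7% higher), so the share was no larger than the background. The largest absolute Wald score among them was 2.06, and the smallest among called genes was 3.64. The 31 genes had a median log2 fold change of -0.071, against -0.018 over all genes tested, with 13 above 0 and 18 below. Yet they did not lie together: their values ran from -0.64 for CCNB2 to 0.65 for MKI67 per the authors' deposited table. Their median mean level was 1992 normalized reads, against 333 over all genes tested, and the shares given next are not matched for level. The 95% interval lay inside a 2-fold change in either direction for 22 of the 31 (71.0%, against 57.6% of all genes tested). For the other 9 it did not, with bounds down to 0.422-fold for CCNB2 and up to 2.69-fold for MKI67, and these genes were CCNB2, CDC25C, AURKB, BIRC5, UBE2C, CDC20, CENPE, CENPF and MKI67. The deposited fold changes are moderated towards 0, so all these intervals may lie too near 0. An interval inside a 2-fold change therefore does not exclude a larger change.

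**Figure D1:**
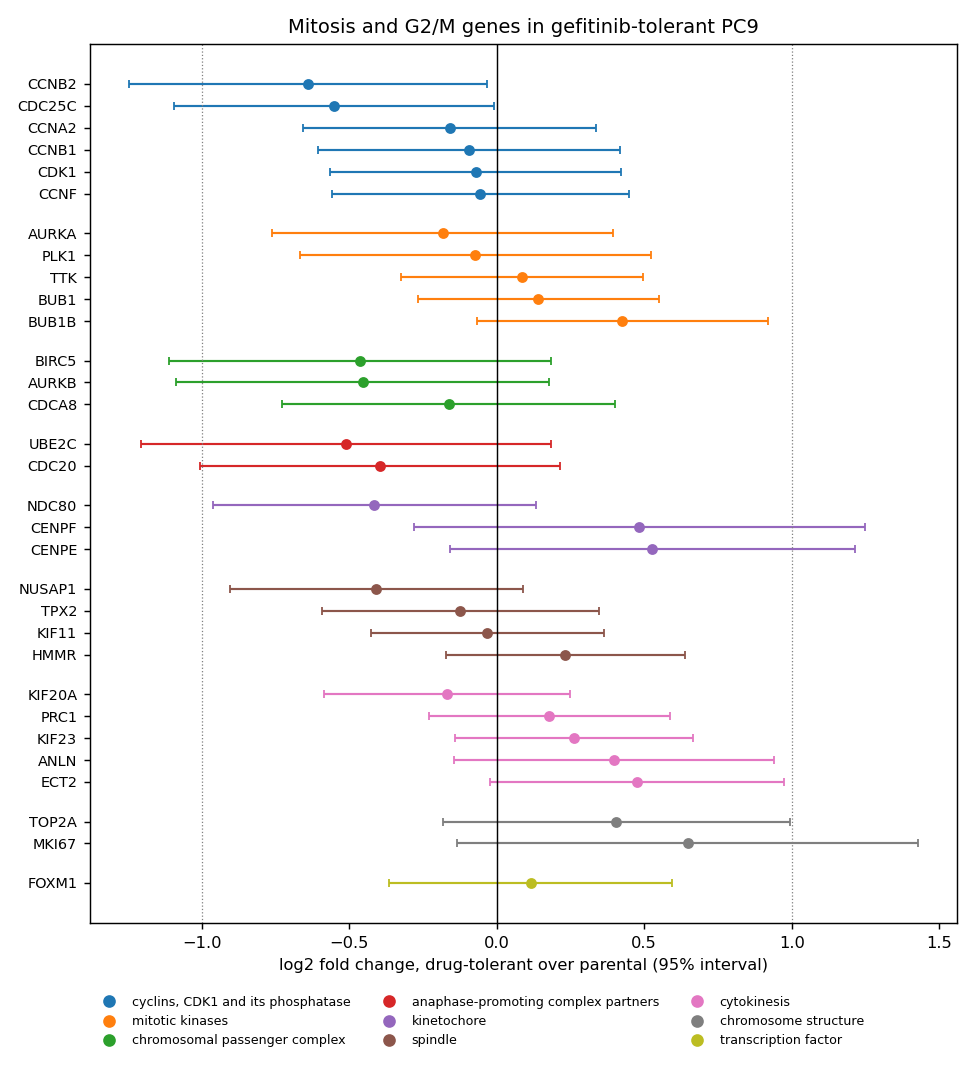
Log2 fold change of each gene, drug-tolerant over parental, with its 95% interval from the authors' standard error. Colours group the genes by role, and dotted lines mark a 2-fold change. Intervals of 29 genes cross 0, and those of CCNB2 and CDC25C end just below it.

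As deposited, the cyclins and their kinase had no value above 0. CCNB2, which encodes cyclin B2, had the lowest value of all 31 genes. From the deposited mean of 1071 normalized reads and the fold change, its level was estimated at 803 in drug-tolerant cells and 1249 in parental cells. Its log2 fold change was -0.64 ± 0.31 (SE) per the authors' deposited table, with an unadjusted p of 0.039 and an adjusted p of 0.45. Cyclin B1, the major mitotic cyclin, showed a smaller difference: CCNB1 was estimated at 3836 normalized reads in drug-tolerant cells and 4095 in parental cells, a log2 fold change of -0.094 ± 0.26 per the authors' deposited table. CDK1, the kinase that both cyclins switch on, was at -0.071 ± 0.25 per the authors' deposited table, with estimated levels of 2997 in drug-tolerant and 3149 in parental cells. CCNA2, the cyclin of S and G2 phase, was at -0.16 ± 0.25, and CCNF, cyclin F, a substrate receptor of an SCF ubiquitin ligase, at -0.055 ± 0.26 per the authors' deposited table. CDC25C, the phosphatase that removes the inhibitory phosphates from CDK1, was the least abundant of the 31 genes at a mean of 299.8 normalized reads. It was estimated at 234 in drug-tolerant cells and 343 in parental cells, with a log2 fold change of -0.55 ± 0.28 per the authors' deposited table (unadjusted p 0.047, adjusted p 0.46). With a trend in length and GC content removed, CCNB1 was at 0.064 and CDK1 at 0.20. The other 4 genes of this group were then below 0.

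Mitotic kinases were spread around 0. AURKA, which matures centrosomes and the spindle poles, was at -0.18 ± 0.29, and PLK1, which acts from mitotic entry to cytokinesis, at -0.073 ± 0.30 per the authors' deposited table. The checkpoint kinases were above 0, with TTK at 0.086 ± 0.21 and BUB1 at 0.14 ± 0.21 per the authors' deposited table. BUB1B, whose product BUBR1 inhibits the anaphase-promoting complex, had an estimated level of 1235 normalized reads in drug-tolerant cells and 919.5 in parental cells, a log2 fold change of 0.43 ± 0.25 per the authors' deposited table (adjusted p 0.50).

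The chromosomal passenger complex, which corrects faulty chromosome attachments, had 3 of its subunits among the 31 genes, all below 0. Its kinase AURKB was estimated at 509 normalized reads in drug-tolerant cells and 697 in parental cells, and was at -0.45 ± 0.32 per the authors' deposited table. Survivin, encoded by BIRC5, was at -0.46 ± 0.33 and borealin, encoded by CDCA8, at -0.16 ± 0.29 in the same authors' deposited table. INCENP, the scaffold of the complex and not one of the 31, was on the other side of 0 at 0.67 ± 0.31 (unadjusted p 0.034, adjusted p 0.45, the authors' deposited table). Its principal transcript has 3698 nucleotides, against 1227 for AURKB, 2630 for BIRC5 and 2469 for CDCA8. With a trend in length and GC content removed, INCENP was at 0.58, AURKB at -0.14, BIRC5 at -0.40 and CDCA8 at -0.077.

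Both partners of the anaphase-promoting complex were below 0. UBE2C, its first ubiquitin-conjugating enzyme, was estimated at 2131 normalized reads in drug-tolerant cells and 3038 in parental cells, a log2 fold change of -0.51 ± 0.35 per the authors' deposited table (adjusted p 0.52). CDC20, an activator of the complex, was estimated at 2520 in drug-tolerant cells and 3316 in parental cells, at -0.40 ± 0.31 per the authors' deposited table (adjusted p 0.56). The principal transcripts of UBE2C and CDC20 have 850 and 1777 nucleotides. With a trend in length and GC content removed, UBE2C was at -0.11 and CDC20 at -0.19.

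Kinetochore genes lay on both sides of 0. NDC80, a subunit of the microtubule-binding NDC80 complex, was at -0.42 ± 0.28 per the authors' deposited table. The other 3 subunits of that complex, named after their values were seen, lay close to it per the authors' deposited table, NUF2 at -0.45 ± 0.30, SPC24 at -0.48 ± 0.34 and SPC25 at -0.55 ± 0.33. Their principal transcripts have 1969, 2315 and 1354 nucleotides. With a trend in length and GC content removed, NDC80 was at -0.23, NUF2 at -0.22, SPC24 at -0.37 and SPC25 at -0.22. CENPE, a kinesin that carries chromosomes to the spindle equator, was estimated at 1228 normalized reads in drug-tolerant cells and 852 in parental cells, with a log2 fold change of 0.53 ± 0.35 per the authors' deposited table (adjusted p 0.51). CENPF, a large coiled-coil protein that binds CENPE, was estimated at 7378 in drug-tolerant and 5279 in parental cells, at 0.48 ± 0.39 per the authors' deposited table (adjusted p 0.57). The principal transcripts of CENPE and CENPF have 8612 and 10307 nucleotides, against 2172 for NDC80.

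Among spindle genes, NUSAP1, which bundles microtubules near chromosomes, was lowest at -0.41 ± 0.25 per the authors' deposited table (adjusted p 0.51). TPX2, the activator of Aurora A on spindle microtubules, was at -0.12 ± 0.24 and KIF11, the kinesin that pushes the poles apart, at -0.033 ± 0.20 per the authors' deposited table. HMMR, a microtubule-binding protein of the spindle poles, was at 0.23 ± 0.21 per the authors' deposited table.

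Cytokinesis genes were above 0 in 4 of 5 cases. ECT2, the exchange factor that activates RhoA at the cell equator, was estimated at 4886 normalized reads in drug-tolerant cells and 3516 in parental cells, a log2 fold change of 0.47 ± 0.25 per the authors' deposited table (unadjusted p 0.062, adjusted p 0.47). ANLN, the anillin of the contractile ring, was estimated at 7262 in drug-tolerant cells and 5512 in parental cells, at 0.40 ± 0.28 per the authors' deposited table. KIF23, a kinesin of centralspindlin, was at 0.26 ± 0.21 and PRC1, which bundles the central spindle, at 0.18 ± 0.21 per the authors' deposited table. KIF20A, a kinesin of the same structure, was at -0.17 ± 0.21 per the authors' deposited table.

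The highest value belonged to MKI67, which encodes the proliferation antigen Ki-67 that coats mitotic chromosomes. Its level was estimated at 9162 normalized reads in drug-tolerant cells and 5850 in parental cells, a log2 fold change of 0.65 ± 0.40 per the authors' deposited table (unadjusted p 0.10, adjusted p 0.51). TOP2A, the topoisomerase that untangles sister chromatids, was estimated at 8844 in drug-tolerant cells and 6678 in parental cells, at 0.41 ± 0.30 per the authors' deposited table (adjusted p 0.54). FOXM1, the transcription factor that acts on many of these promoters, was at 0.12 ± 0.24 per the authors' deposited table, where its adjusted p was 0.83, and its 95% interval ran from -0.36 to 0.59.

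Levels differed far more between genes than between groups. Per kilobase of transcript, the mean level was 3148 normalized reads for UBE2C, 1840 for CCNB1, 1687 for CDC20 and 1614 for CDK1, the 4 highest. CENPE was lowest at 116, next to CDC25C at 141 and CCNF at 218. MKI67 and TOP2A, the highest by reads, were at 566 and 1310 per kilobase. Summed over the 31 genes, the estimated levels came to 83780 normalized reads in drug-tolerant cells and 76996 in parental cells. Per kilobase the sums were 25066 in drug-tolerant cells and 26512 in parental cells, so the order of the groups in such a sum depended on whether reads were divided by length. The table gives no spread between libraries for these levels. The fold changes behind them are moderated towards 0, so the gap between groups may be understated, by an amount not measured for these genes.

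**Figure D2:**
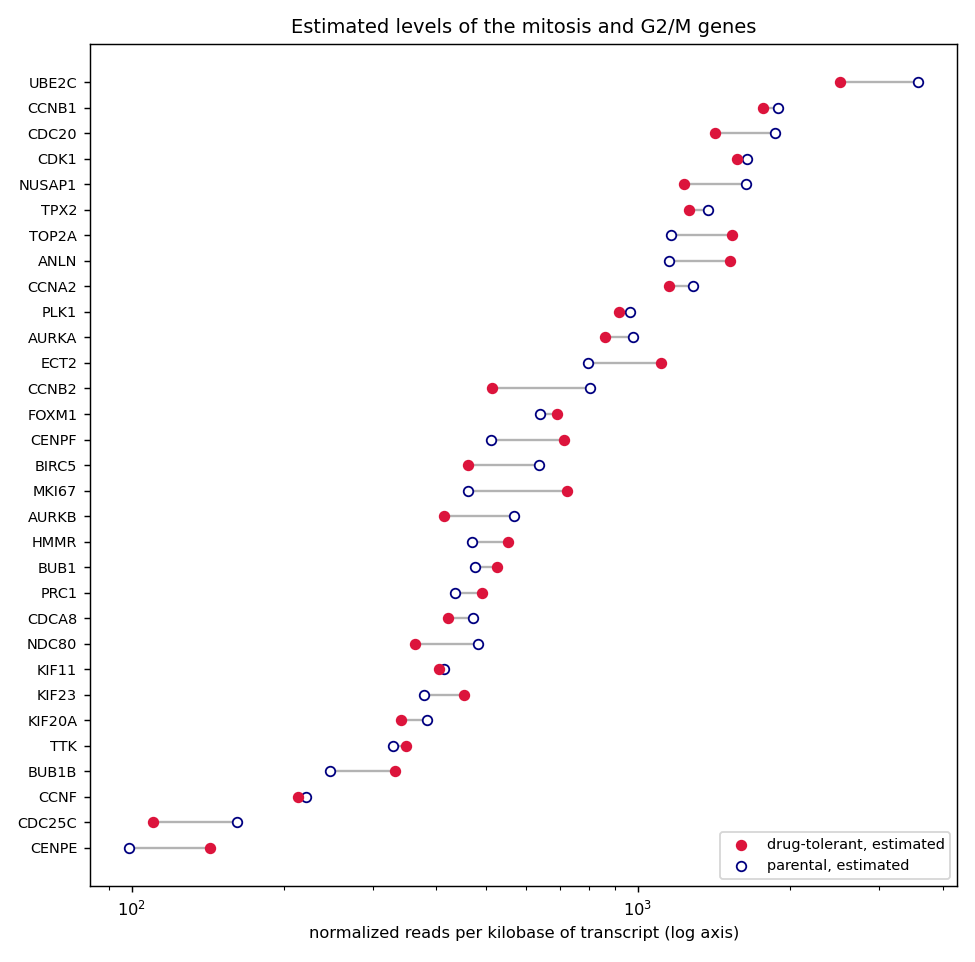
Estimated levels of the 31 genes in normalized reads per kilobase of principal transcript, on a log axis, in drug-tolerant cells (filled) and parental cells (open). Genes are ordered by their mean level, from UBE2C at 3148 to CENPE at 116, and the 2 groups of a gene lie close together relative to the range between genes.

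The order of the 31 genes by fold change followed the length of their transcripts. All 6 genes with a principal transcript of up to 2 kb (UBE2C, AURKB, CCNB2, NUSAP1, CDC20 and CDK1) were below 0, with a median log2 fold change of -0.43. Of the 9 genes from 2 to 3 kb, 8 were below 0, with a median of -0.16. From 3 to 4 kb, 6 of 8 genes were above 0, with a median of 0.13, and over 4 kb, 6 of 8 were above 0, with a median of 0.44. The same classes of all tested protein-coding genes had medians of -0.36, -0.12, 0.029 and 0.24, with 18.5%, 35.3%, 52.8% and 73.5% of genes above 0. Those with a mean level at least that of CDC25C, the lowest of the 31, had medians of -0.42, -0.14, 0.031 and 0.28. Across the 31 genes, Pearson's r between log2 fold change and log2 length was 0.85 and Spearman's rho 0.86. Across the 12461 protein-coding genes, not matched to the 31 for mean level, they were 0.51 and 0.53. These are correlations across genes that share the same 5 libraries, and genes are not independent replicates. CCNF (4283 nucleotides) and KIF11 (4860) departed from this order, at -0.055 and -0.033 per the authors' deposited table. So did KIF20A (3201) and TPX2 (3497), at -0.17 and -0.12, and HMMR (2988), at 0.23, in the same authors' deposited table. For GC content, r was -0.46 over the 31 genes and -0.11 over all protein-coding genes.

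**Figure D3:**
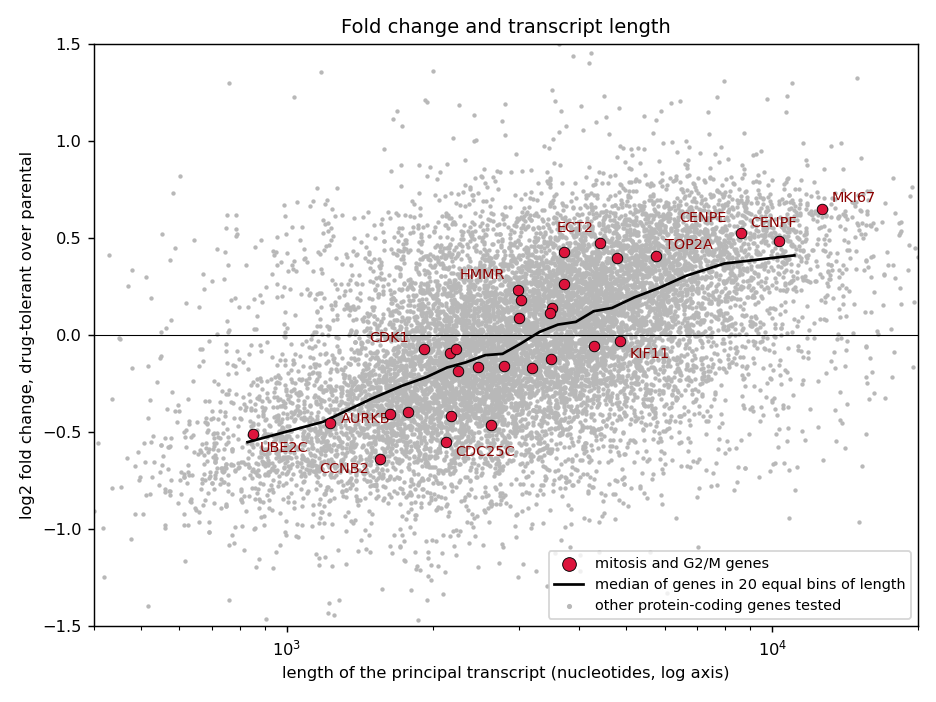
Log2 fold change against the length of the principal transcript on a log axis, for the 31 genes (red) and all other protein-coding genes tested (grey). The black line joins the medians of 20 equal bins of genes by length, and genes outside the axes are not shown. The red points rise from UBE2C and CCNB2 at the short end to MKI67 at the long end.

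Standard errors also varied with length. The authors' standard error had a median of 0.31 over the 6 shortest genes, 0.28 from 2 to 3 kb, 0.21 from 3 to 4 kb and 0.29 over 4 kb, where it reached 0.40 for MKI67. Protein-coding genes with a mean level at least that of CDC25C had medians of 0.31, 0.26, 0.24 and 0.28 in the same classes. The split of the parental libraries by long and short transcripts given above lies within 1 group, and its part in these standard errors was not tested.

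After a smooth trend with transcript length and GC content over all 12461 protein-coding genes was taken off, the 31 genes ran from -0.40 to 0.39. The SD between them was 0.36 as deposited and 0.23 without the trend, against 0.42 and 0.36 over all protein-coding genes, not matched for mean level. Of the 31, 23 moved nearer to 0. MKI67 was then at 0.26, CENPE at 0.27, CENPF at 0.15 and TOP2A at 0.21. At the other end CCNB2 was at -0.38, UBE2C at -0.11, AURKB at -0.14 and NUSAP1 at -0.16. BIRC5 at -0.40, BUB1B at 0.36 and ECT2 at 0.39 moved by less than 0.1, and CDC25C was at -0.40 with an unadjusted p of 0.15. CCNB1, CDK1 and PLK1 changed sign, to 0.064, 0.20 and 0.053. With the authors' standard errors, 0 of the 31 were called without the trend, where 0.562% of genes were, and 0 had an unadjusted p under 0.05, against 8.52%. The order by length was weaker but not gone, with r at 0.51 and rho at 0.53 over the 31 genes.

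**Figure D4:**
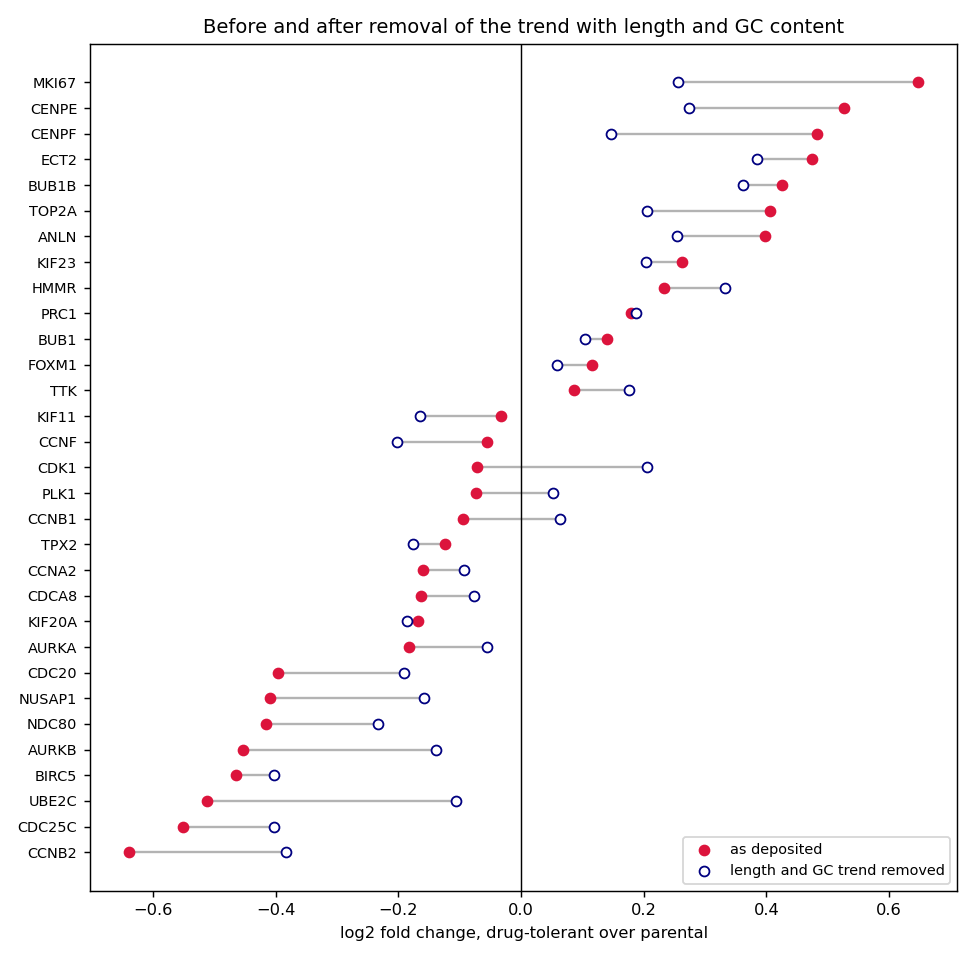
Log2 fold change of each gene, drug-tolerant over parental, as deposited (filled) and with the trend in transcript length and GC content removed (open). Most open points lie nearer to 0, and those of CCNB1, PLK1 and CDK1 lie on the other side of it.

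Other genes of the pathway were not called either. Of 80 further mitosis genes, all tested, 0 were called (DESeq2, the authors' deposited table), against 0.552% of all genes tested. At that share a count of 0 says little about a list of this size. Of the 80, 6 were lower and 1 higher at an unadjusted p under 0.05, where 7.1% and 3.7% of all genes tested were. Their median was -0.081, with 33 above 0 and 47 below. The lowest Wald scores per the authors' deposited table were those of STMN1, encoding the microtubule destabilizer stathmin (-0.79 ± 0.28), HMGB2, encoding a chromatin protein (-0.88 ± 0.33), and CENPU, a centromere gene (-0.76 ± 0.30). The highest were those of INCENP, of KNL1, a kinetochore scaffold of 9573 nucleotides at 0.71 ± 0.40, and of CKAP5, a microtubule polymerase of 7121 nucleotides at 0.64 ± 0.37, also from the authors' deposited table. STMN1, HMGB2 and CENPU have 1712, 1889 and 1998 nucleotides, and with the length and GC trend removed they were at -0.57, -0.70 and -0.53. Without the trend, 0 of the 80 were called and 4 had an unadjusted p under 0.05, against 0.562% and 8.52% of protein-coding genes.

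Regulators of these promoters were also not called. Of 22 such genes, 0 were called, against 0.552% of all genes tested. With an unadjusted p under 0.05, 2 were lower and 0 higher (7.1% and 3.7% of all genes tested), and the median was 0.13. MYBL2, encoding B-MYB, was at -0.51 ± 0.33 per the authors' deposited table (adjusted p 0.51). LIN52, a MuvB subunit, was at -0.62 ± 0.28 (unadjusted p 0.025, adjusted p 0.43), and TFDP2, an E2F partner, at -0.53 ± 0.22 (unadjusted p 0.015, adjusted p 0.39), both per the authors' deposited table. Above 0 were LIN54, the MuvB subunit that binds the CHR, at 0.32 ± 0.23, the pocket protein RBL1 at 0.42 ± 0.31 and the NF-Y subunit NFYA at 0.48 ± 0.30 per the authors' deposited table.

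Genes of the preceding phase, DNA replication, had 0 of 31 called, against 0.552% of all genes tested. There were 0 lower and 1 higher at an unadjusted p under 0.05 (7.1% and 3.7% of all genes tested), and the median was -0.031. The lowest scores were those of PCNA, the polymerase clamp (-0.56 ± 0.29), GINS2, a helicase subunit (-0.56 ± 0.30), and TYMS, thymidylate synthase (-0.46 ± 0.27), per the authors' deposited table. The highest were those of GINS4 (0.54 ± 0.26), POLE (0.64 ± 0.36) and POLD1 (0.35 ± 0.24), a helicase subunit and polymerase subunits, from the authors' deposited table. Among CDK inhibitors and related cyclins, 9 of 10 were tested and 0 were called, against 0.552% of all genes tested. Of the 9, 3 were lower and 0 higher at an unadjusted p under 0.05 (7.1% and 3.7% of all genes tested), and the median was -0.50. CDKN1A, which encodes p21, was at -1.01 ± 0.36 per the authors' deposited table (unadjusted p 0.0055, adjusted p 0.27). CCNG2, a cyclin of quiescent cells, was at -0.84 ± 0.23 with an adjusted p of 0.051 per the authors' deposited table, and had an adjusted p of 0.0032 with the length and GC trend removed. CDKN2D, which encodes an INK4 inhibitor, was at -1.06 ± 0.39 per the authors' deposited table (adjusted p 0.30). The other end of the list held CDKN2B at 0.45 ± 0.34, CDKN2A at -0.27 ± 0.28 and CCNG1 at -0.39 ± 0.28, from the authors' deposited table. Whether these lists differ from the mitosis genes was not tested.

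Reads of some members can be shared with other genes. In GENCODE 29, exons of BUB1B, NUSAP1 and PRC1 overlap another gene on the same strand, 10 of the 31 genes overlap an exon on the opposite strand, and CCNB2, AURKA, BUB1, CDC20, UBE2C and MKI67 have named processed pseudogenes. The kit keeps strand, but the strand setting of the counting is not given in the sources used here, so these values are less certain.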

How the data were processed

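Per the labels' protocols, TriZol was used to isolate RNA and a stranded kit for mRNA to make the libraries. FastQC, STAR, DESeq2 and build hg38 are named per the submitters' processing notes. Versions, counting tool and annotation are not stated there. The authors deposited each gene's mean level, a signal averaged over the 5 libraries after division of reads by size factors. The authors also deposited fold changes and standard errors on the log2 scale. They are moderated towards 0: genes with reads in 1 drug-tolerant library only had a median of 0.095. Their ratio is the deposited Wald score, which differed from the ratio recomputed here by at most 1.8e-07. The deposited p-values come raw and adjusted, and a Benjamini-Hochberg adjustment over the 15223 genes matched them to within 2.0e-05. "Called" means the authors' adjusted p under 0.05. The edgeR test planned for counts was not run, since the table holds no counts.

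The direction of the fold change was read off low genes, whose means are built from whole reads, each worth a fixed step that depends on its library, and each of the 12705 genes under a mean of 10 had exactly 1 solution within 1.5e-09. Genes read in a single library had a fold change below 0 for 3 libraries and above 0 for 2, matching the 3 parental and 2 drug-tolerant libraries; replicate numbers could not be matched. Group levels were estimated from the mean and fold change of each gene. Lengths and GC content are those of the APPRIS principal transcript in GENCODE 29 (GRCh38), matched by gene ID, and overlaps use all annotated exons. The trend was fitted by least squares on cubic splines with 4 degrees of freedom (patsy 1.0.2, Python 3.11.15, scipy 1.17.1) and tested on simulated data. Intervals are 95% Wald intervals. The members and lists were chosen with earlier results of these data known, so lists are described by counts and medians and not tested. Every member and every cell type marker is named, and of the other lists the 3 lowest and 3 highest Wald scores. NUF2, SPC24 and SPC25 are named outside this rule, after their values were seen.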

Additional observations from a re-analysis of the deposited data

How the results depend on the processing

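The count of 0 among the 31 mitosis and G2/M genes, and of 0 among the 80 further mitosis genes, was 0 under each of the 7 alternatives run: thresholds of 0.1 and 0.01, no filter on low mean levels, a mean of at least 50, the Wald score centred and scaled by its robust SD, the length and GC trend removed, and the trend in length, GC content and mean level removed, which was chosen after seeing the data. The smallest adjusted p among the 31 ran from 0.40 to 0.97 over these. A threshold of 0.01 is stricter than 0.05 and could only keep a count of 0. Dropping the filter and scaling the score were also stricter here. The smallest adjusted p among the 31 was 0.80 and 0.97 under them, against 0.45 as deposited. Among the 80 it was 0.45 and 0.97, against 0.25. A count of 0 under these stricter settings therefore does not show that the result is robust. Of all genes tested, 0.552% were called as deposited. Once length and GC content were adjusted for, 0.562% of protein-coding genes were called. At such shares a count of 0 says little about lists of 31 or 80 genes. Shares for the other alternatives are not given here, so their counts of 0 cannot be weighed against a background. The median log2 fold change of the 31, -0.071 as deposited, was -0.053 after centring on all tested genes but changed sign to 0.053 without the length and GC trend and 0.068 without the trend that includes mean level. Signs were 13 above 0 and 18 below as deposited, and 16 above and 15 below without the length and GC trend. For the 80 further genes the median, -0.081 as deposited, ran from -0.062 to -0.033. Of the 31 single genes, 28 kept their sign under both trend removals. CCNB1, CDK1 and PLK1 did not, at 0.064, 0.20 and 0.053 without the length and GC trend and 0.095, 0.23 and 0.068 with mean level added. The fitted trend at these 3 genes was -0.18, -0.30 and -0.15. No paired analysis was possible because the table holds no values per library, and for the same reason leaving out a replicate and the DESeq2 and edgeR fits with other normalizations were not run.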
